A study of Citrus sinensis with 12 samples.

Results

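The expression tables for sweet orange (Citrus sinensis) roots list 20122 features, and 1392 of them are assembled loci, transcribed regions that carry a serial number from the submitters' own processing in place of an identifier from the gene annotation. All rows with such a serial number were taken, whatever their level or response. The other features are 16013 annotated genes on 9 chromosomes and 2717 annotated genes on unplaced sequence, here called Un. The roots came from seedlings kept for 17 weeks at pH 3 or pH 4.8 with 0.5 or 300 µM CuCl2, in 4 groups of 3 libraries, each library made from a pool of 4 seedlings. The groups are P4.8R (pH 4.8, 0.5 µM copper), P3R (pH 3, 0.5 µM copper), P4.8CR (pH 4.8, 300 µM copper) and P3CR (pH 3, 300 µM copper). The series' title puts the question as relief from copper toxicity by raised pH. A p-value here sets a difference against the spread between pools of seedlings within groups, estimated over all 4 groups together.

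Transcript assembly joins aligned reads into candidate transcripts without using gene models, so it can report transcribed regions that an annotation lacks. Such regions can be unannotated protein-coding genes, long noncoding RNAs, detached ends of annotated genes or transcribed repeats. In libraries that do not mark the strand of the RNA, a splice junction shows the strand through its donor and acceptor bases, and an assembled transcript without a junction may be left without a strand. Copper is an essential micronutrient that damages roots in excess, and acid soil solution itself stresses roots.

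The values are FPKM, fragment counts scaled to feature length and to the size of the library. The libraries hold 17710000 to 22778000 fragments, a depth read off the spacing of low values, and 3 fragments on a feature of 1 kb were worth 0.132 to 0.169 FPKM. The files give positions and identifiers but no gene names, so neither the identity of the tissue nor that of neighbouring genes could be checked against markers. Libraries of a group were alike over the loci, with Pearson's r on the log2 scale from 0.935 in P3CR to 0.968 in P4.8R across 1392 loci. The P3CR library 2 had 29 annotated genes and 2 loci at least 4-fold below both other libraries of its group, against at most 2 annotated genes and 3 loci in any other library.

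The loci were short, often without a strand, and more frequent per annotated gene on unplaced sequence than on the 9 chromosomes. Of the 1392 loci, 505 lay on the plus strand, 479 on the minus strand and 408 (29.3%) had no strand given. The median span from start to end was 1280.5 bp against 3225 bp for annotated genes, with a range of 204 to 258289 bp. Strandless loci had a median span of 804 bp and stranded loci one of 1726.5 bp. The strandless share fell along the length classes from 80% of the 95 loci under 500 bp to 47.1% of the 412 loci from 500 bp to below 1000 bp, 26.1% of the 436 loci from there to below 2000 bp, 6.46% of the 356 loci from there to below 5000 bp and 1.08% of the 93 longer loci. Un held 409 loci (29.4%) but only 14.5% of annotated genes. That is 15.1 loci per 100 annotated genes on Un, against 6.14 per 100 on the 9 chromosomes together. Single chromosomes ranged from 5.25 loci per 100 genes on chromosome 7 to 7.83 on chromosome 8. A strand was missing from 33.7% of the loci on Un and from 18.9% (chromosome 3) to 34.4% (chromosome 6) of those on a chromosome.

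**Figure D1:**
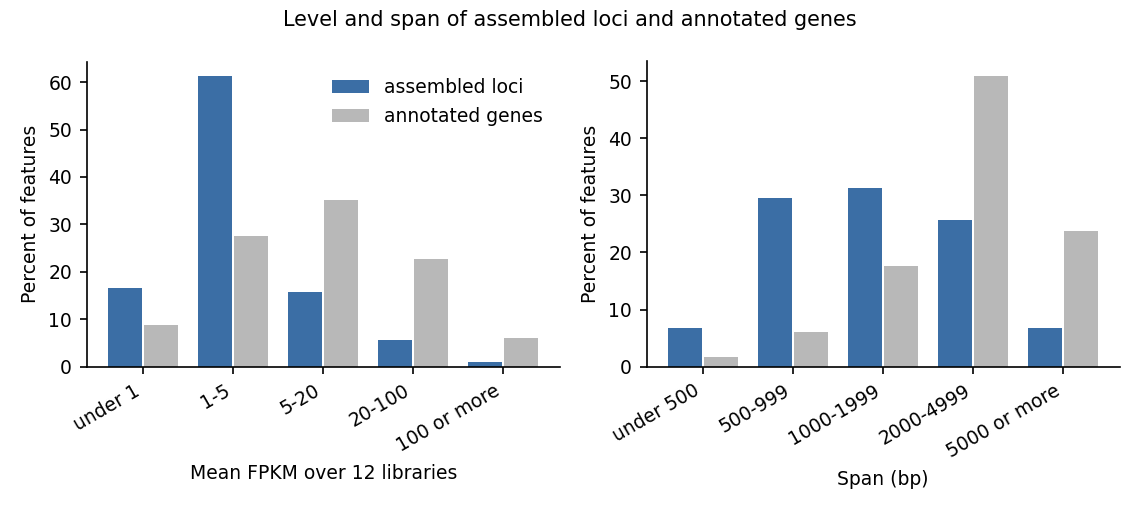
Percent of the 1392 assembled loci (blue) and of the 18730 annotated genes (grey) in classes of mean FPKM over the 12 libraries (left) and of span in bp (right). Loci peak at 1 to 5 FPKM, with 61.3% of them there, and annotated genes at 5 to 20 FPKM, with 35.1% there.

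Next to annotated genes, the strandless loci followed a boundary that the stranded loci did not. No strandless locus lay within 2000 bp past the end of a gene in the tables, and the nearest one stood 2002 bp away. On the other side, 65 of the 408 strandless loci lay within 2000 bp before the start of a gene, the nearest at 78 bp. In the next 2000 bp the counts were 48 past an end and 41 before a start. The 984 stranded loci showed no such gap, with 196 within 2000 bp past an end and 196 within 2000 bp before a start. Among stranded loci within 500 bp of their nearest gene, 54 lay past its end on the opposite strand, 22 past its end on its own strand, 28 before its start on the opposite strand and 33 before its start on its own strand. Whether a step of the assembly or the annotation sets the 2000 bp boundary was not tested, and a rule on distance is not given in the sources used here. Only genes listed in the tables were considered, and neighbours on Un may not be neighbours in the genome.

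**Figure D2:**
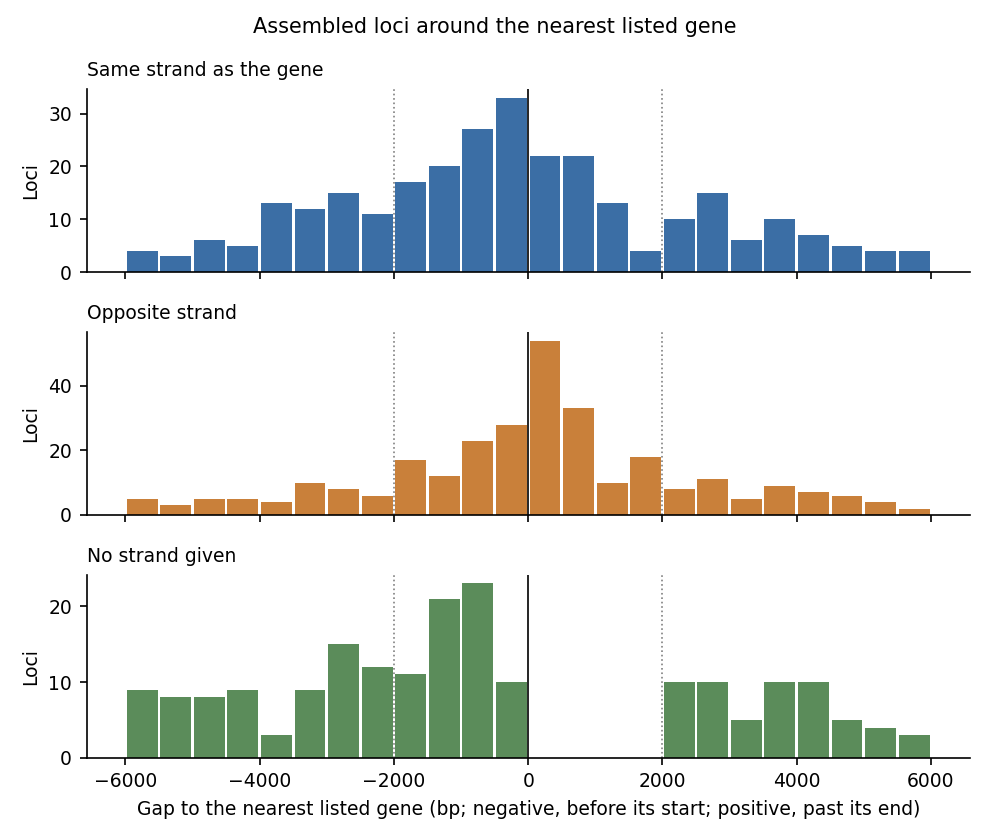
Number of assembled loci in 500 bp bins of the gap to the nearest listed gene, for loci on the strand of that gene (top), on the opposite strand (middle) and without a strand (bottom); negative gaps lie before the gene's start, positive gaps past its end, and dotted lines mark 2000 bp. The bottom panel is empty from 0 to 2000 bp past the end, while 65 strandless loci lie within 2000 bp before a start.

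Distances to the nearest listed gene spread widely around a median of 3727 bp for stranded and 6568.5 bp for strandless loci. In all, 147 loci lay within 500 bp, 128 beyond that but within 1000 bp, 448 within 5000 bp, 403 within 20000 bp and 256 farther away. The remaining 10 loci overlapped a gene. Each of them was stranded, spanned 12931 to 258289 bp, overlapped 1 to 6 genes and enclosed at least 1 of them whole. No locus lay inside a gene. Whether a locus that encloses a gene also cut partly across a further gene was not examined. Since the strand setting of the counting is not given, reads of those 10 loci and of the genes they overlap may not be separable.

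The FPKM steps show over what length fragments were counted, which separates loci counted over their whole span from loci counted over a part of it. In a library, each FPKM value of a feature is a whole number of fragments times a constant set by the counted length. The library depths were set on strandless loci at their full span, and 3292 of 3292 strandless values then came within 0.15 of a whole fragment, a fit that is in part built in. All 277 strandless loci of up to 1200 bp with enough values of at most 100 fragments were whole at their span, against 139 of 257 (54.1%) stranded loci and 577 of 1038 (55.6%) annotated genes of that length. A counted length of 150 to 1200 bp was recovered for 447 stranded loci, and for 310 of them it was shorter than the span, with a median of 691.5 bp counted out of a median span of 1429 bp. In 155 of these 310 it was under 50% of the span. The same search gave a length for 279 strandless loci, and 2 of these came out shorter than the span, at 360 of 1039 bp and 1053 of 1754 bp.

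The extremes were long loci with a short counted part, as recovered by this search. Counted lengths this small beside the span were not among those simulated to test it. Of 452 simulated stranded loci counted over more than 1200 bp, 1 was wrongly given a length in the range searched. On Un, the minus-strand locus from 74036102 to 74099539 spanned 63438 bp and was counted over 1.57% of that span. The minus-strand locus on chromosome 3 from 8022991 to 8063644 spanned 40654 bp and was counted over 1105 bp (2.72%), and the plus-strand locus on chromosome 8 from 7660319 to 7682051 was counted over 623 bp of 21733 bp (2.87%). Where the nearest gene was on the same strand, the boundary at 2000 bp also followed the counted length. Stranded loci of up to 1200 bp that were counted over their whole span and had their nearest gene on the same strand, ending before the locus, lay beyond 2000 bp in 20 cases and within it in 0, the closest at 2106 bp. Among those not whole at their span, 15 lay within 2000 bp and 17 beyond. Past the end of a gene on either strand, the measure used above for strandless loci, there was no such boundary. By it 23 of the 139 stranded loci whole at their span lay within 2000 bp, the closest at 24 bp, and 28 of the 118 not whole.

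**Figure D3:**
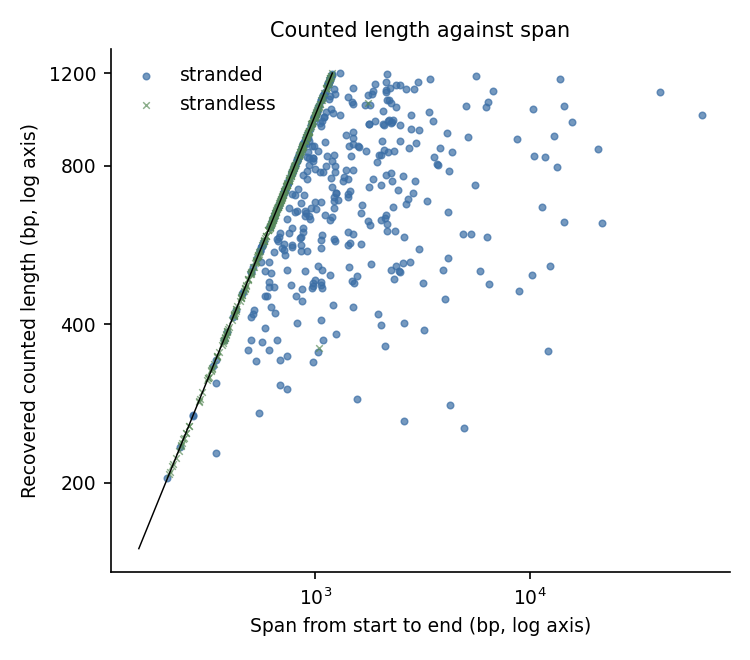
Counted length recovered from the FPKM steps against the span from start to end, both in bp on log axes, for stranded loci (circles) and strandless loci (crosses); the line marks equality, and lengths above 1200 bp were not searched. Of 279 strandless loci 277 sit on the line, while 310 of 447 stranded loci lie below it.

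Levels of the loci were low beside those of annotated genes, and nearly all loci, like nearly all features, were listed above 0 in every library. The median of the mean FPKM over 12 libraries was 2.08 for the loci and 8.76 for annotated genes, both per length. The lowest mean was 0.155 FPKM and the highest 675. In the level classes, 229 loci had a mean under 1 FPKM, 853 had 1 to 5, 219 had 5 to 20, 78 had 20 to 100 and 13 had 100 FPKM or more. FPKM was above 0 in all 12 libraries for 1340 of the 1392 loci and for 19788 of all 20122 features, and such a value can rest on very few fragments. Together the loci held 1.88% ± 0.088 (SD, n = 3) of the summed FPKM in P4.8R, 1.84% ± 0.0094 in P3R, 1.93% ± 0.055 in P4.8CR and 1.99% ± 0.089 in P3CR. Over single libraries the share ran from 1.81% to 2.08%. The P3R libraries, at 1.83% to 1.85%, lay below all 6 libraries at 300 µM copper, while P4.8R, at 1.81% to 1.98%, overlapped every other group. Between 1 and 4 loci were at 0 in each P3CR library, against 5 to 14 in each of the other 9, and annotated genes at 0 numbered 7 to 11 in P3CR libraries and 34 to 104 elsewhere. Replicates of a locus also spread more than those of a gene: the median SD of log2(FPKM + 1) was 0.184 to 0.231 by group for loci and 0.111 to 0.174 for annotated genes, and it was higher for loci in each of the 5 level classes in each group.

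The 6 most abundant loci each exceeded the level of most annotated genes. The highest lies on chromosome 5 from 6082217 to 6084387 (plus strand, 2171 bp), 1138 bp past the end of a gene on the other strand. Its FPKM was 813, 1046 and 930 in P4.8R, 621, 570 and 489 in P3R, 714, 774 and 776 in P4.8CR and 428, 523 and 419 in P3CR. At both copper levels the pH 3 libraries were all below the pH 4.8 libraries, and the limma fit gave a low-pH difference of −0.73 ± 0.12 (SE, log2 scale) at 0.5 µM (adjusted p = 0.00077) and −0.73 ± 0.12 at 300 µM copper (adjusted p = 0.00041). On chromosome 3, the locus from 25363008 to 25364037 went the other way, at 350, 353 and 347 FPKM in P4.8R, 468, 428 and 439 in P3R, 454, 422 and 490 in P4.8CR and 615, 548 and 562 in P3CR. All 4 of its differences were rises of 0.34 to 0.38 with adjusted p from 0.002 to 0.0062.

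Copper moved the other 4 abundant loci at pH 4.8, and 2 of them at pH 3 as well. The locus on chromosome 5 from 7374007 to 7375154 stood at 177, 196 and 192 FPKM in P4.8R, 233, 197 and 189 in P3R, 132, 119 and 115 in P4.8CR and 360, 549 and 398 in P3CR. It fell with copper at pH 4.8 (−0.62 ± 0.14, adjusted p = 0.002) and rose at pH 3 (1.06 ± 0.14, adjusted p = 6.2e-05), with an interaction of 1.68 ± 0.19 (adjusted p = 5.9e-05). Another on chromosome 5, from 2720546 to 2734779 (14234 bp) rose with copper at pH 4.8, from 84.4, 90.8 and 104.5 FPKM to 352, 363 and 405 (1.99 ± 0.16, adjusted p = 4.5e-07), while P3R stood at 193, 180 and 193 and P3CR at 227, 341 and 199 (adjusted p = 0.063). On Un, the locus from 39203117 to 39205530 was higher with copper at both pH levels, by 1.09 ± 0.14 at pH 3 and 0.61 ± 0.14 at pH 4.8 (adjusted p = 5.4e-05 and 0.0024), with group means of 160 and 343 FPKM and of 214 and 324 FPKM. On chromosome 6, that from 10994979 to 10999507 fell with copper at pH 4.8 from a mean of 299 to 196 FPKM (−0.61 ± 0.14, adjusted p = 0.0026).

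Some loci changed little between groups. Among loci with a mean of at least 20 FPKM, the 4 with the smallest SD over 12 libraries included the one on chromosome 2 from 1681999 to 1683601, which ranged from 64.0 to 82.4 FPKM. Its group means were 72.9, 67.0, 78.3 and 70.7 FPKM in P4.8R, P3R, P4.8CR and P3CR, and none of the 5 tests called it (adjusted p from 0.22 to 0.89). On chromosome 7, a second from 6984716 to 6987866, 354 bp past the end of a gene on the other strand, had group means of 55.3 to 60.7 FPKM. Of the other 2, the one on chromosome 7 from 26260328 to 26262869 was called with copper at pH 4.8 (−0.31 ± 0.12, adjusted p = 0.044), a call lost without P4.8R library 3 (adjusted p = 0.17). These loci were chosen for that steadiness.

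The 3 longest loci had means of 1.20, 8.51 and 3.21 FPKM over the 12 libraries, and the second was close to the median of annotated genes. The longest, on chromosome 1 from 8095348 to 8353636 (minus strand, 258289 bp, overlapping 2 listed genes), stood at 1.36, 1.65 and 2.02 FPKM in P4.8R and 1.08, 0.56 and 0.59 in P3R. It fell with low pH by 0.62 on the log2 scale (SE 0.15, adjusted p = 0.006). The locus on chromosome 3 from 11292409 to 11546794 (254386 bp, overlapping 4 genes) had a mean of 6 FPKM in P4.8R and 9.05 in P4.8CR (0.54 ± 0.18, adjusted p = 0.024), a call lost without P4.8R library 2 (adjusted p = 0.099). That on chromosome 9 from 12393253 to 12605328 (212076 bp, overlapping 3 genes) had 2.05 and 3.49 FPKM in the same groups (0.55 ± 0.15, adjusted p = 0.0066).

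Treatment effects were tested in 1 limma fit over all features whose mean reached 1 FPKM in any group, on log2(FPKM + 1), with Benjamini-Hochberg adjusted p under 0.05 as the call. The filter kept 1321 of the 1392 loci within 19204 features. Of these 1321, 123 reached a mean of 1 FPKM in 1 group only, so that for them passing the filter and differing between groups go together, and 834 reached it in all 4. At least 1 of the 5 tests called 885 loci (67%), against 76.6% of all features, and 436 were called in none. Loci are named as largest among called ones whose higher group averaged 5 FPKM or more and, outside the interaction, whose libraries did not overlap between the groups, which left 173, 240, 135, 160 and 134 loci in the order of the tests below. In each test a smaller share of the loci than of all features was called, beside a higher spread between replicates and a lower level, whose part in this was not tested. Within level classes the order varied. At 1 to 5 FPKM the share was below that of annotated genes in each test (24.5% against 29.6% for copper at pH 3). At 20 to 100 FPKM it was above in each test (52.6% against 44.7% for copper at pH 3). At 5 to 20 FPKM it was above in the copper tests and the interaction (43.4% against 33.7% for copper at pH 3). There it was below in both pH tests (28.3% against 35.3% at 0.5 µM copper). Within a bulk root sample, fewer cells of a type and less RNA per cell cannot be told apart.

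**Figure D4:**
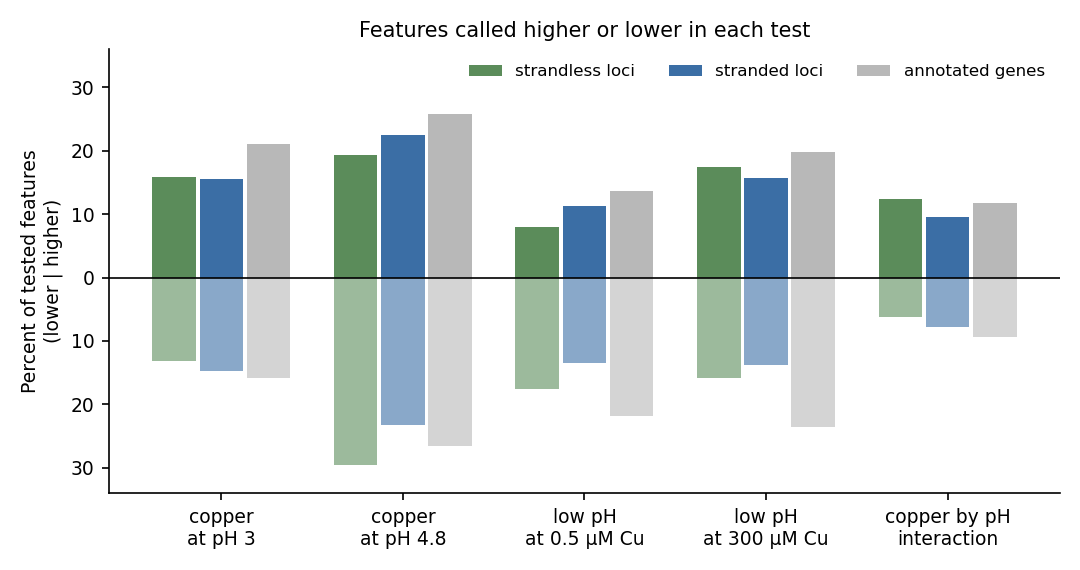
Percent of tested strandless loci (green, n = 386), stranded loci (blue, n = 935) and annotated genes (grey, n = 17883) called higher (upward, dark) or lower (downward, pale) in each of the 5 tests. Bars of the loci are mostly shorter than those of annotated genes; strandless loci reach 29.5% lower with copper at pH 4.8, against 23.3% of stranded loci and 26.6% of annotated genes.

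Copper at pH 3, the comparison of P3CR with P3R, changed 395 loci (29.9% of those tested), against 36.3% of all features. Of these, 207 rose (15.7%, against 20.6% of all features) and 188 fell (14.2%, against 15.7%), but the falls outnumbered the rises, at 250 to 168, when libraries were scaled to equal medians, at 252 to 169 after quantile normalization and at 114 to 94 with a filter of 5 FPKM. The median difference was −0.022 over the loci and 0.021 over all features.

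The largest rise with copper at pH 3 was on chromosome 3 from 767533 to 768050, a minus-strand locus of 518 bp that was counted over 426 bp and lies 2491 bp past the end of a gene on its strand. FPKM was 0.25, 4.41 and 1.25 in P3R and 357, 724 and 551 in P3CR, which is 2, 35 and 10 fragments against 2724, 6738 and 5018. At pH 4.8 it stood at 0.51, 0.13 and 12.9 FPKM without added copper and 4.46, 1.29 and 4.10 with it. All 3 P3CR libraries were far above the other 9, and library 3 of P4.8R was the highest of those. The difference at pH 3 was 7.72 ± 0.78 (adjusted p = 9.2e-06).

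A pair of adjacent strandless loci on chromosome 5 rose in the same libraries. They run from 24366991 to 24367516 and from 24368952 to 24369594, with 1436 bp between them. The first stood at 0.10, 0.51 and 0.00 FPKM in P3R and 35.3, 29.8 and 43.9 in P3CR, a difference of 4.96 ± 0.25 (adjusted p = 4.9e-08). The second stood at 0.57, 1.34 and 0.66 in P3R and 25.6, 51.4 and 42.7 in P3CR, a difference of 4.43 ± 0.28 (adjusted p = 2.1e-07). At pH 4.8 the first had 0.62, 0.11 and 0.25 FPKM in P4.8R and 1.28, 0.48 and 1.93 in P4.8CR, and the second 0.93, 0.97 and 2.53 and then 1.57, 0.93 and 1.93. In both, the P3CR libraries lay above the other 9. The first was also called higher with copper at pH 4.8 (0.71 ± 0.25, adjusted p = 0.028), a call lost without P4.8CR library 3 (adjusted p = 0.13). The fourth rise was on chromosome 5 from 28618046 to 28618502 (minus strand, counted over its full 457 bp), at 0.35, 0.24 and 0.23 FPKM in P3R and 16.6, 45.9 and 15.2 in P3CR (4.22 ± 0.44, adjusted p = 1.2e-05). Its P4.8CR libraries, at 5.26, 0.66 and 1.11 FPKM, were also above all P4.8R libraries, at 0.12, 0.12 and 0.00, a call lost without P4.8CR library 1 (adjusted p = 0.084).

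Among the falls with copper at pH 3, 3 of the 4 largest lay on Un. The plus-strand locus from 81453201 to 81453500 (300 bp) went from 9.32, 24.2 and 17.5 FPKM in P3R to 0.00, 0.15 and 0.78 in P3CR (−3.73 ± 0.66, adjusted p = 0.00074). The locus from 22181072 to 22184003 went from 79.4, 95.0 and 28.6 FPKM to 4.18, 6.08 and 5.15 (−3.33 ± 0.73, adjusted p = 0.003). In both, P4.8R library 3 was far below the other P4.8R libraries, at 0.59 FPKM against 9.76 and 17.5 in the first and 3.49 against 36.4 and 61.4 in the second. The third, from 50984873 to 51125006, spans 140134 bp, overlaps 2 genes and fell from 21.3, 23.8 and 21.5 FPKM to 1.39, 2.77 and 3.16 (−2.79 ± 0.26, adjusted p = 4.8e-06). Of these genes, orange1.1t03320 on the opposite strand fell in the same test from a mean of 70.5 to 22.4 FPKM (−1.64 ± 0.40, adjusted p = 0.006). Reads of this gene and of the locus may not be separable. The fourth, on chromosome 5 from 30585014 to 30585703, fell from 52.4, 59.3 and 67.8 FPKM to 9.71, 17.4 and 6.85 (−2.39 ± 0.26, adjusted p = 1.5e-05). The groups compared did not overlap at any of these 4 loci, which the rule for naming requires.

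Copper at pH 4.8, P4.8CR against P4.8R, changed 616 loci (46.6%, against 52% of all features), with 284 rises (21.5%, against 25.5%) and 332 falls (25.1%, against 26.5%). More fell than rose in each of the 21 alternative settings. Of the 386 strandless loci tested, 75 rose (19.4%) and 114 fell (29.5%), and of the 935 stranded loci 209 rose (22.4%) and 218 fell (23.3%). On Un, 98 of 382 loci rose (25.7%) and 77 fell (20.2%), against 25% and 24.2% of annotated genes there, and on the 9 chromosomes 186 of 939 rose (19.8%) and 255 fell (27.2%), against 25.9% and 27% of annotated genes. Of the 237 loci over 20000 bp from a listed gene, 66 rose (27.8%) and 43 fell (18.1%). Of the 121 between 500 and 1000 bp from a gene, 16 rose (13.2%) and 37 fell (30.6%). Falls also led within 500 bp (34 to 31 rises), from 1000 to 5000 bp (121 to 88) and from 5000 to 20000 bp (95 to 79). Of the 9 overlapping loci tested, 4 rose and 2 fell. Of the 95 loci under 500 bp long, 19 rose (20%) and 36 fell (37.9%), and annotated genes of that length also fell more often than they rose (30.2% and 17.7%). The majority of the stranded loci flipped or evened out in 5 of the 21 settings. Those of the strandless loci, Un, the 9 chromosomes and the loci under 500 bp long kept their side in all 21. So did those over 20000 bp and from 500 to 1000 bp from a gene. The other distance classes were not examined in these settings. Whether the classes differ was not tested, and they overlap, since strandless loci are also short. Loci on Un also lay farther from a listed gene, at a median of 10950 bp against 3499 bp on the 9 chromosomes.

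Among the 4 largest rises with copper at pH 4.8, the first was on Un from 32474959 to 32477014, 190 bp before the start of a gene on the same strand. It rose from 0.31, 0.16 and 0.32 FPKM in P4.8R to 15.8, 16.5 and 15.5 in P4.8CR (3.74 ± 0.19, adjusted p = 1.1e-08), and it also rose at pH 3, from 1.67, 0.85 and 0.61 FPKM to 6.74, 10.5 and 10.1. On chromosome 8, the locus from 9296665 to 9297502 rose from 6.41, 5.59 and 9.43 FPKM to 92.0, 78.8 and 133 (3.64 ± 0.24, adjusted p = 9.9e-08). A strandless locus on Un from 8609164 to 8610312 was close to absent at low copper. It had 1, 2 and 2 fragments in the P4.8R libraries and 0 in all 3 P3R libraries, against 206, 177 and 132 in P4.8CR and 211, 320 and 219 in P3CR. In FPKM the P4.8CR libraries stood at 10.03, 7.70 and 6.47 and the P3CR libraries at 10.25, 12.74 and 8.92. The P3CR mean was at least 76.4-fold higher than a floor of 3 fragments per P3R library allows for P3R, and the difference at pH 4.8 was 3.06 ± 0.15 (adjusted p = 1.1e-08). The fourth, on Un from 43467477 to 43472453, rose from 9.62, 7.70 and 5.79 FPKM to 64.9, 69.0 and 46.2 (2.81 ± 0.48, adjusted p = 0.00036), while its P3CR libraries ran from 19.0 to 133 FPKM.

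The largest fall with copper at pH 4.8 was on chromosome 1 from 25975246 to 25976802, a plus-strand locus that starts 775 bp past the end of a gene on its strand. FPKM was 26.1, 25.3 and 41.1 in P4.8R and 0.27, 0.32 and 0.27 in P4.8CR (−4.60 ± 0.21, adjusted p = 5.9e-09). At pH 3 the copper groups overlapped, with 12.9, 20.1 and 21.3 FPKM in P3R and 19.4, 17.6 and 26.6 in P3CR (adjusted p = 0.44, difference 0.23 ± 0.21). The locus on chromosome 6 from 20181895 to 20184591 had the same pattern, with 10.2, 8.16 and 17.3 FPKM in P4.8R, 0.00, 0.00 and 0.17 in P4.8CR, 6.63, 9.12 and 12.02 in P3R and 17.5, 8.78 and 18.9 in P3CR (−3.55 ± 0.29 at pH 4.8, adjusted p = 6.8e-07). In both, the 3 P4.8CR libraries lay below all 9 others.

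The next 2 falls were graded over the groups instead. On Un from 32639563 to 32639919 (357 bp), FPKM was 386, 489 and 453 in P4.8R, 183, 142 and 154 in P3R, 89.9, 91.7 and 92.6 in P3CR and 46.4, 43.3 and 48.4 in P4.8CR, with no overlap between any groups (−3.23 ± 0.10 at pH 4.8, adjusted p = 6e-10). The strandless locus on chromosome 8 from 14848506 to 14849505 ranked the groups in the same order, at 29.8, 42.6 and 33.1 FPKM in P4.8R, 16.04, 19.8 and 18.1 in P3R, 11.1, 14.8 and 10.7 in P3CR and 2.91, 3.90 and 3.38 in P4.8CR (−3.03 ± 0.15, adjusted p = 1e-08).

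The copper tests at the 2 pH levels share no library. Of the 207 loci that rose at pH 3 and the 284 that rose at pH 4.8, 123 rose in both, which is 59.4% and 43.3% of the lists. Of the 188 and 332 that fell, 114 fell in both, 60.6% and 34.3%. Opposite calls were made for 19 loci, up at pH 3 but down at pH 4.8, and for 15 with the reverse. Over all features the shares called in both were higher, at 64.6% and 52.3% for rises and 67.1% and 39.6% for falls. Opposite calls took 9.18% of the rises and 7.98% of the falls at pH 3 among the loci, against 6.41% and 4.92% over all features.

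Low pH at 0.5 µM copper, P3R against P4.8R, changed 330 loci (25%, against 34.8% of all features), with 137 rises (10.4%, against 13.3%) and 193 falls (14.6%, against 21.4%), though rises led with 173 to 151 under median scaling and 160 to 151 under quantile normalization. Strandless loci had 31 rises (8.03%) and 68 falls (17.6%), so that falls were the majority in them as over all features. Among the rises, the locus on chromosome 8 from 9296665 to 9297502, already named for copper, went from 6.41, 5.59 and 9.43 FPKM to 37.1, 35.0 and 24.4 (2.03 ± 0.24, adjusted p = 7.5e-05). A pair of plus-strand loci on chromosome 7 rose from low levels. The one from 19234448 to 19235133, counted over 597 bp, went from 0.91, 1.32 and 0.15 FPKM to 9.28, 3.51 and 7.16 (2.07 ± 0.42, adjusted p = 0.0026). The one from 19201437 to 19201994 went from 1.38, 1.92 and 2.33 FPKM to 11.9, 6.39 and 9.19 (1.80 ± 0.50, adjusted p = 0.015), a call lost without P3R library 1 (adjusted p = 0.056). The strandless locus on chromosome 2 from 4058067 to 4059026 rose from 22.2, 17.2 and 22.5 FPKM to 70.0, 63.4 and 82.4 (1.75 ± 0.22, adjusted p = 0.00012).

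Among the 78 falls eligible for naming with low pH at 0.5 µM copper, the largest were on Un from 7624520 to 7625182, from 22.4, 26.3 and 18.4 FPKM to 4.64, 4.26 and 2.21 (−2.34 ± 0.32, adjusted p = 0.00019), and on Un from 46212776 to 46213327, from 58.4, 82.6 and 62.4 FPKM to 15.2, 20.8 and 11.96 (−2.03 ± 0.31, adjusted p = 0.00041). Short strandless loci made up the other 2. The one on chromosome 4 from 13101535 to 13101764 (230 bp) fell from 20.5, 87.2 and 43.0 FPKM to 13.5, 11.4 and 10.2 (−1.79 ± 0.36, adjusted p = 0.0024), and the one on Un from 57256230 to 57256464 (235 bp) from 6.23, 19.5 and 9.53 FPKM to 2.47, 4.34 and 2.50 (−1.53 ± 0.34, adjusted p = 0.0045). All 4 of these loci also fell with copper at pH 4.8, by 1.96 to 2.82 on the log2 scale; both tests use the P4.8R libraries.

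Low pH at 300 µM copper, P3CR against P4.8CR, changed 404 loci (30.6%, against 42.4% of all features), with 214 rises (16.2%, against 19.5%) and 190 falls (14.4%, against 22.9%). The counts evened out to 171 and 171 without P4.8CR library 1 and were 216 and 217 without P3CR library 2. The 4 largest rises were the chromosome 3 locus of 518 bp (7.03 ± 0.78, adjusted p = 1.5e-05), the first and second loci of the chromosome 5 pair (4.10 ± 0.25 and 4.01 ± 0.28, adjusted p = 8.6e-08 and 3.4e-07) and the chromosome 1 locus from 25975246 (4.09 ± 0.21, adjusted p = 2.2e-08). Their values are given above: P3CR was high at the first 3, and P4.8CR was low at the fourth.

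Falls with low pH at 300 µM copper were led by the minus-strand locus on chromosome 8 from 4853150 to 4854203. It stood at 105, 122 and 73.6 FPKM in P4.8R, 104, 115 and 104 in P3R, 161, 213 and 161 in P4.8CR and 42.5, 49.0 and 48.9 in P3CR (−1.90 ± 0.16, adjusted p = 1.3e-06). The P3CR libraries lay below and the P4.8CR libraries above those of both low-copper groups. A like arrangement was seen at the strandless locus on chromosome 5 from 26835259 to 26836445, with 29.6, 31.3 and 32.3 FPKM in P4.8R, 22.9, 22.8 and 21.9 in P3R, 61.3, 69.6 and 46.1 in P4.8CR and 13.4, 20.3 and 15.1 in P3CR (−1.80 ± 0.15, adjusted p = 1.3e-06). The locus on chromosome 2 from 6456473 to 6458462 fell from 16.3, 13.4 and 14.9 FPKM to 1.94, 7.61 and 2.46 (−1.83 ± 0.29, adjusted p = 0.00025). The strandless locus on chromosome 5 from 29476280 to 29477157 was lower at pH 3 at either copper level, with 33.8, 49.97 and 31.8 against 17.5, 20.3 and 11.3 FPKM at 0.5 µM and 31.9, 29.4 and 32.3 against 6.36, 13.0 and 10.1 at 300 µM (−1.20 ± 0.24 and −1.62 ± 0.24, adjusted p = 0.0023 and 0.00016).

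The pH tests share no library either. Of 137 rises at 0.5 µM and 214 at 300 µM copper, 40 were common, 29.2% and 18.7% of the lists, and of 193 and 190 falls, 70 were common, 36.3% and 36.8%. Over all features the shares were 40.6% and 27.7% for rises and 53.5% and 50% for falls.

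The interaction asked where the copper effect itself differed between pH 3 and pH 4.8, and it was called for 234 loci (17.7%, against 20.8% of all features). For 137 of them the copper difference was more positive at pH 3 (10.4%, against 11.6%), and for 97 more negative (7.34%, against 9.2%), with 117 and 110 under median scaling. Copper was called at pH 4.8 alone for 102 of the 234 loci, at pH 3 alone for 55, at both in the same direction for 40, at both in opposite directions for 34 and at neither for 3. In absolute size, copper moved 149 of them more at pH 4.8 and 85 more at pH 3. These splits are given without the same split over all features, of which copper was called in 52% at pH 4.8 and 36.3% at pH 3. They are therefore not read as particular to the loci.

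The largest positive interactions were those of the chromosome 3 locus of 518 bp (7.25 ± 1.10, adjusted p = 0.00048), the chromosome 1 locus from 25975246 (4.82 ± 0.30, adjusted p = 5.4e-07) and the chromosome 5 pair (4.25 ± 0.35 for the first and 4.39 ± 0.40 for the second, adjusted p = 4.5e-06 and 1.1e-05). Negative interactions were smaller. The chromosome 8 locus from 9296665 had −2.50 ± 0.34 (adjusted p = 0.00021), since copper raised it by 3.64 at pH 4.8 and by 1.14 at pH 3, to 53.4, 93.0 and 72.1 FPKM in P3CR. The chromosome 8 locus from 4853150 had −2.03 ± 0.23 (adjusted p = 4.6e-05), as copper raised it at pH 4.8 (0.84 ± 0.16, adjusted p = 0.00073) and lowered it at pH 3 (−1.19 ± 0.16, adjusted p = 8.6e-05).

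Low-count loci made up the other 2 negative interactions. The minus-strand locus on chromosome 2 from 1529463 to 1529666, with 204 bp the shortest of all loci, stood at 6.38, 3.04 and 1.29 FPKM in P4.8R, 9.57, 7.37 and 15.7 in P3R, 5.21, 2.70 and 6.35 in P4.8CR and 1.37, 4.26 and 2.29 in P3CR, on 5 to 60 fragments per library. Its interaction of −2.16 ± 0.59 (adjusted p = 0.019) had an adjusted p of 0.053 without P3R library 3. The strandless locus on Un from 86395313 to 86395826 had 8.76, 9.01 and 2.82 FPKM in P4.8R, 12.5, 10.1 and 13.6 in P3R, 6.97, 8.76 and 12.9 in P4.8CR and 4.45, 4.36 and 2.00 in P3CR (−2.06 ± 0.49, adjusted p = 0.0087). At both loci P3R lay above P3CR without overlap, while P4.8R and P4.8CR overlapped.

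By the listed FPKM, a group stood apart from the 9 other libraries at 11 loci, by 4-fold or more in every pair of libraries where the higher side averaged 5 FPKM or more. P3CR was above all others at 5 loci, among 62 features (0.308% of all features, and 0.359% of the loci). P4.8CR was below all others at 5 loci, among 79 features (0.393%, and 0.359% of the loci). P3R was below at the Un locus from 8609164, the only such feature (0.00497%). It was listed at 0 there against 1 or 2 fragments per P4.8R library, so at a floor of 3 fragments it is not apart from P4.8R, which leaves 10 loci. P4.8R set no locus apart, while 1 feature (0.00497%) was above and 8 (0.0398%) were below in that group. Of the 5 loci high in P3CR, 4 had no strand. They are the chromosome 3 locus of 518 bp, the chromosome 5 pair and 2 further strandless loci. The one on chromosome 8 from 15585820 to 15586473 stood at 10.7, 10.1 and 6.51 FPKM in P3CR and between 0.49 and 1.29 elsewhere, which is 125, 145 and 91 fragments against 6 to 15. The one on chromosome 5 from 26937475 to 26938212 stood at 6.58, 8.86 and 5.46 FPKM in P3CR and between 0.48 and 1.14 elsewhere.

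Of the 5 loci low in P4.8CR, those on chromosomes 1 and 6 are described above. The plus-strand locus on chromosome 9 from 1248948 to 1250649 stood at 0.99, 1.12 and 0.23 FPKM in P4.8CR, against 14.6, 11.2 and 12.1 in P4.8R, 25.3, 23.7 and 24.2 in P3R and 11.9, 22.4 and 18.1 in P3CR (copper at pH 4.8, −2.97 ± 0.22, adjusted p = 2.8e-07). The strandless locus on Un from 85449975 to 85450728 had 0 fragments in all 3 P4.8CR libraries, against 76, 42 and 141 in P4.8R, 34, 26 and 40 in P3R and 115, 72 and 141 in P3CR. With a floor of 3 fragments per P4.8CR library, the P4.8R mean was at least 26.1-fold higher, the P3R mean at least 10.9-fold and the P3CR mean at least 33.5-fold. The strandless locus on chromosome 1 from 22775230 to 22776270 had 0.81, 0.34 and 0.76 FPKM in P4.8CR and 6.16 to 9.55 in the other 9 libraries. This locus and the one on chromosome 5 from 26937475 fall outside the rule for named loci and were chosen after their values were seen.

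**Figure D5:**
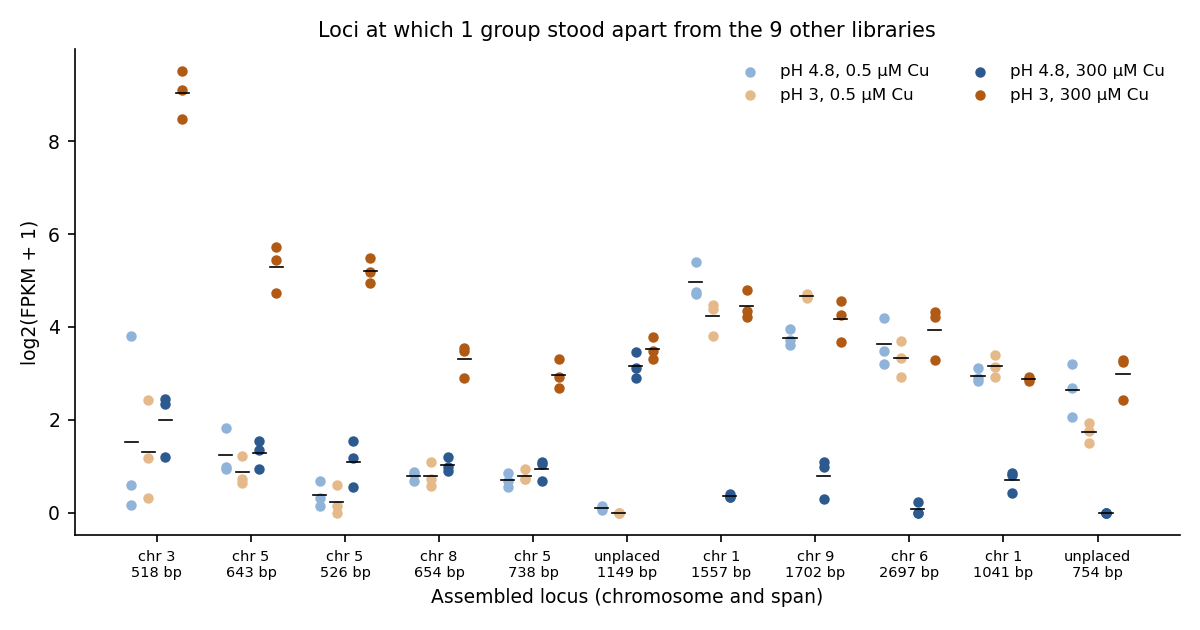
Level of the 11 loci at which 1 group stood apart, as log2(FPKM + 1), with a point for each of the 3 libraries of a group and a bar at the group mean; loci are labelled by chromosome and span. The first 5 are high in P3CR (pH 3, 300 µM), the sixth is at 0 in P3R (pH 3, 0.5 µM), and the last 5 are low in P4.8CR (pH 4.8, 300 µM).

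Changes of the loci were weakly correlated with those of a nearest gene within 1000 bp. Over the 259 loci tested together with a nearest gene that overlapped or lay within 1000 bp, Spearman's rho between the 2 differences was 0.34 for copper at pH 3, 0.27 for copper at pH 4.8, 0.26 and 0.37 for low pH at 0.5 and 300 µM copper and 0.29 for the interaction, as a description across pairs that share libraries. With copper at pH 3 both features were called in the same direction in 32 pairs and in opposite directions in 13, the locus alone in 34, the gene alone in 47 and neither in 133. With copper at pH 4.8 the counts were 45, 23, 48, 62 and 81. For the 97 pairs on the same strand rho was 0.46 and 0.35 in the copper tests at pH 3 and pH 4.8, and for the 133 on opposite strands 0.22 and 0.23. In the copper tests, pairs more than 5000 bp apart gave 0.18 and 0.24 on the same strand (182 pairs) and 0.29 and 0.13 on opposite strands (179 pairs). For low pH at 0.5 and 300 µM copper and the interaction, same-strand rho was 0.35, 0.41 and 0.3 within 1000 bp. Beyond 5000 bp it was 0.24, 0.17 and 0.1. On opposite strands these tests gave 0.2, 0.32 and 0.26 within 1000 bp and 0.12, 0.07 and −0.01 beyond 5000 bp. Whether distance matters was not tested. Whether a same-strand locus close to a gene belongs to the transcript of that gene was not tested.

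Examples ranged from pairs that moved together to loci that changed far more than the gene beside them. The minus-strand locus on chromosome 6 from 13544758 to 13546258 lies 605 bp past the end of Cs6g12110, on its strand. With copper at pH 3 the locus rose from 3.85, 2.04 and 4.09 FPKM to 42.9, 37.4 and 26.5 (3.09 ± 0.22, adjusted p = 5e-07) and the gene from 8.73, 6.29 and 11.9 to 71.0, 50.3 and 48.2 (2.54 ± 0.18, adjusted p = 5.5e-07). Both also rose at pH 4.8, the locus by 1.78 ± 0.22 and the gene by 2.17 ± 0.18 (adjusted p = 2.3e-05 and 8e-07). In contrast, the chromosome 1 locus from 25975246 fell by 4.60 with copper at pH 4.8, while the gene 775 bp before it moved by −0.23 ± 0.07 (adjusted p = 0.014), from 40.9, 41.4 and 40.4 FPKM to 35.5, 36.2 and 32.5.

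Opposite changes were found beside genes on either strand. The chromosome 9 locus from 1248948 lies 849 bp before the start of a gene on its strand, and that gene rose slightly with copper at pH 4.8 (0.29 ± 0.09, adjusted p = 0.015) as the locus fell. On chromosome 6 the minus-strand locus from 19193830 to 19195215, counted over 786 bp, fell from 4.42, 5.17 and 9.27 FPKM to 0.00, 0.06 and 0.14 with copper at pH 4.8 (−2.72 ± 0.26, adjusted p = 2.7e-06), while the gene 693 bp away on its strand rose from 37.5, 43.3 and 49.0 FPKM to 56.1, 60.2 and 62.6 (0.46 ± 0.11, adjusted p = 0.0036). The minus-strand locus on chromosome 5 from 29376028 to 29377116 starts 480 bp before a plus-strand gene. With copper at pH 3 it rose from 1.79, 1.48 and 1.47 FPKM to 6.20, 11.9 and 9.59 (1.95 ± 0.19, adjusted p = 5.7e-06), and the gene fell from 9.08, 8.36 and 8.44 to 7.47, 5.54 and 6.06 (−0.40 ± 0.12, adjusted p = 0.017). A weaker case was the chromosome 3 locus from 22214569 to 22215762 (−0.63 ± 0.21, adjusted p = 0.035), whose call was lost without P3R library 1 (adjusted p = 0.15) and whose P3R and P3CR libraries overlapped. The gene facing it 880 bp away rose by 1.45 ± 0.19 (adjusted p = 8.1e-05).

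Loci next to other loci were compared in the same way. Of the 1392 loci, 130 lay within 2000 bp of another, in 67 pairs, and both members were tested in 58. Across these pairs Spearman's rho was 0.56 for copper at pH 3 and 0.48 for copper at pH 4.8, with 10 pairs called in the same direction and 0 in opposite directions at pH 3, and 14 and 4 at pH 4.8. For low pH at 0.5 and 300 µM copper rho was 0.42 and 0.41, and for the interaction it was 0.24, with 2 pairs called in the same direction and 1 in opposite directions. Whether these values differ from those between loci and genes was not tested, and the distance limits are not the same. The chromosome 5 pair is 1 of the 10. Whether such neighbours are pieces of a single transcript was not tested.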

How the data were processed

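Root RNA was measured in 12 libraries, 4 groups of 3, each library from 4 pooled seedlings. The titles of the P4.8R samples give 5 µM copper and their treatment label 0.5 µM, which was used. The deposited tables hold FPKM per feature, made by the authors. Per the submitters' processing notes StringTie 1.3.4d, HISAT2 2.1.0, DESeq2 1.22.1, fastp 0.19.3 and featureCounts 1.6.2 were used, with no role stated. Not given in the sources used here are the genome build, annotation, strand setting and treatment of reads with several matches: near-identical copies and overlapping features are uncertain. No genome was used, no sequence is shown, and no identifier matched a gene name.

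Features whose mean reached 1 FPKM in any group were fitted as log2(FPKM + 1) by limma 3.58.1, under R 4.3.3, using its trend option and group means over all 12 libraries, and p-values were adjusted by Benjamini-Hochberg over 19204 features. Fold changes on that scale understate those of low features. Depth came from the steps between low FPKM values, with Python 3.11.15, pandas 2.3.3 and numpy 2.4.6, and the scripts were tested on simulated data. The simulated counted lengths did not cover the smallest parts of a span given above. Floors cover counting error only. Named loci are up to 4 largest called rises and falls per test (among loci averaging 5 FPKM or more where higher and, save for the interaction, with library values that do not overlap), the 6 most abundant, the 3 longest, the 4 steadiest, pairs with a neighbouring gene, loci at 0 in a group, and loci that set a group apart. Alternatives changed the pseudocount, filter, scaling, trend, weights, samples fitted and replicate block. Members and lists were chosen with earlier results of these data known.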

Additional observations from a re-analysis of the deposited data

Results flagged for a closer look

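The copper effect differed between pH 3 and pH 4.8 at 234 loci by the interaction term of the limma fit, which is what brought these results here. That is 17.7% of the loci tested, below the 20.8% of all features. The largest positive interactions were 7.25 on chromosome 3 from 767533, 4.82 on chromosome 1 from 25975246, and 4.39 and 4.25 on chromosome 5 from 24368952 and from 24366991, all on the log2 scale. Among the 97 negative ones, the largest under the naming rule were −2.50 on chromosome 8 from 9296665, −2.16 on chromosome 2 from 1529463, −2.06 on Un from 86395313 and −2.03 on chromosome 8 from 4853150.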

How the results depend on the processing

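Raising the filter to 5 FPKM, which leaves fewer loci to test, gave 208 called loci for copper at pH 3 (94 higher, 114 lower), 271 for copper at pH 4.8 (125 and 146), 154 for low pH at 0.5 µM (69 and 85), 197 for low pH at 300 µM (105 and 92) and 138 for the interaction (77 and 61). The counts in this section are given without the shares over all features, so a lower count is not a lower share. In the main fit copper at pH 3 was called for 43.4% of loci at 5 to 20 FPKM and 29.9% of all loci tested. Leaving out 1 library gave, in the same order, 157 to 220 higher and 144 to 215 lower loci, 232 to 305 and 264 to 354, 91 to 174 and 131 to 214, 171 to 216 and 153 to 217, and 105 to 149 and 77 to 114; the 91 is without P3R library 3. It also gave 11 to 13 loci that set a group apart and a share of summed FPKM of 1.89% to 1.92%. A 3-fold rule set 17 loci apart. The share was 2.01% without the 10 most abundant features, against 1.91%. Against genes on the same strand only, the median gap of stranded loci was 10795.5 bp, against 3727 bp. With at least 5 FPKM in both features, rho between loci and neighbours for low pH at 300 µM was 0.51, against 0.37; the cause was not tested. For the 46 calls by which loci were named as largest changes or with a neighbouring gene, 947 of 957 alternative values kept the call and 0 reversed. These calls were picked as large ones in the same data. Other calls of named loci are not in this count, and some of them were lost without 1 library, as given above.

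The replicate numbers did not pair the libraries (r from −0.218 to 0.238 between same-numbered libraries). With a replicate block the counts were 399 (213 higher, 186 lower), 611 (282, 329), 336 (143, 193), 413 (218, 195) and 238 (139, 99).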
